A study of Mus musculus with 60 samples.

Results

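The genes described here are the dual-specificity MAP kinase phosphatases Dusp1, Dusp3, Dusp4, Dusp5, Dusp6, Dusp7, Dusp8, Dusp10, Dusp14 and Dusp16, which are 10 of the 18088 genes in a table of prefrontal cortex RNA levels from 60 mice. They were chosen by name, and all 10 were found in the table and passed the filter on low values. All mice were C57BL/6J and were studied on postnatal day 25, after 3 weeks of drug or vehicle received through the mother's milk from day 3 to day 24. The heterozygous mice, called Het below, were Chd8+/N2373K, with 1 altered copy of Chd8, a gene for a chromatin remodeller, and the comparison genotype was wild type (WT). Each genotype received vehicle, fluoxetine (a serotonin reuptake inhibitor) or lithium (a mood stabiliser), in males and in females, which gave 12 groups of 5 libraries. The labels do not say which mice shared a litter or a mother, so the p-values below measure the spread between these libraries only.

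MAP kinases are switched on when a threonine and a tyrosine in their activation loop are phosphorylated, and dual-specificity phosphatases switch them off by removing both phosphates. The family divides by location and target. Dusp1, Dusp4 and Dusp5 encode nuclear enzymes whose genes are induced by growth factors, stress or neuronal activity. Dusp6 and Dusp7 encode cytoplasmic enzymes that act on ERK, and Dusp6 is itself induced by ERK signalling and so forms part of a feedback loop. Dusp8, Dusp10 and Dusp16 encode enzymes that act mainly on the stress kinases JNK and p38. Dusp3 and Dusp14 encode small atypical members that lack the kinase-binding domain of the others.

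Sequence upstream of the start of transcription is shown for 4 members, because Dusp1 and Dusp8 hold the full cyclic AMP response element, Dusp5 holds CArG boxes and Dusp6 holds none of the motifs searched. The sequences come from RefSeq on GRCm38.p6, whose promoter table gave windows for 9 of the 10 members (all but Dusp4). They run 5′ to 3′ on the strand of the gene and stop before any annotated exon of that strand. Capitals mark every match to a searched motif. The stretches are Dusp1 (chr17:26508520-26508722, minus strand, bases -250 to -48 from the start), Dusp5 (chr19:53528895-53529108, plus strand, bases -250 to -37), Dusp6 (chr10:99262981-99263230, plus strand, bases -250 to -1) and Dusp8 (chr7:142095285-142095534, minus strand, bases -250 to -1).
Dusp1: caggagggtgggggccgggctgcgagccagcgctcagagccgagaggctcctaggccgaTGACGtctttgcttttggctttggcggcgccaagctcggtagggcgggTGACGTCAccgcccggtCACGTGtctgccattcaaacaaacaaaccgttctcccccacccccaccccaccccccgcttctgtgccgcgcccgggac
Dusp5: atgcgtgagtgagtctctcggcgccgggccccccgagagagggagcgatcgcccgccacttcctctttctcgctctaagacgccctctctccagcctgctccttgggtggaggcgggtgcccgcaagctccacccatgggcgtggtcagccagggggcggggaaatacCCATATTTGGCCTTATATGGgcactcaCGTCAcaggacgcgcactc
Dusp6: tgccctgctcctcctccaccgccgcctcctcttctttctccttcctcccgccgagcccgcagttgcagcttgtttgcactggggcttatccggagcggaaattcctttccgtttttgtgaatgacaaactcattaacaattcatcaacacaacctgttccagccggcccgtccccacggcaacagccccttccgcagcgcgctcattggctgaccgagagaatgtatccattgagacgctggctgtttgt
Dusp8: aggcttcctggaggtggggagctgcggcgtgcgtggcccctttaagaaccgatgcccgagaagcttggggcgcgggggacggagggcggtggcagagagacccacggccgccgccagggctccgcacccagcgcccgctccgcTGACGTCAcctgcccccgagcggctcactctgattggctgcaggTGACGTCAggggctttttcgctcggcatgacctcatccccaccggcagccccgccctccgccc
Motifs were searched on both strands of windows of 300 bases, 250 before and 50 after the start, and the share of all 32851 such windows that holds each motif is given as background. The full cyclic AMP response element TGACGTCA, present in 1.79% of windows, was found in Dusp1 (bases -143 to -136) and at 2 places in Dusp8 (bases -107 to -100 and -63 to -56). Its core TGACG, which overlaps the full element and is present in 20.8% of windows, was found in Dusp1, Dusp5, Dusp8 and Dusp16. The CArG box, the motif of serum response factor, is present in 1.63% of windows, and among the 9 member windows it was found in Dusp5, at 2 adjoining places (bases -82 to -73 and -72 to -63). The E-box CACGTG (7.15% of windows) was found in Dusp1 and the ETS motif CCGGAA (14.9%) in Dusp14. No member window held the AP-1 motif TGANTCA (7.81%) or the EGR motifs GCGGGGGCG (2.91%) and GCGTGGGCG (0.612%). A match describes the letters in the window and was not tested for binding.

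Depth was 24052509 to 31647416 reads per library, with a median of 28317231. Slc17a7, the vesicular glutamate transporter of cortical excitatory neurons, had 34169 to 54206 normalized counts in every library, so the labelled tissue was recognisable. Olfactory bulb markers varied far more. Cdhr1, a gene of bulb projection neurons, ranged from 65.2 to 9257 normalized counts, Tbx21, Eomes and Igfbpl1 were at 0 in at least 1 library, and the summed level of the 14 bulb markers ranged from 2389 in a Het fluoxetine male to 36159 in a Het vehicle male. A bulb score, the mean centred log2 level of the 14 markers, is therefore set beside the results it runs with. Chd8 itself had 3003, 3158, 3071, 3111 and 3099 normalized counts in WT vehicle males and 3041, 2977, 3179.8, 3128 and 3276 in WT vehicle females. In Het vehicle mice it had 2826, 2731, 2473, 2621 and 2724 in males and 2621, 2753, 2619, 2538 and 2640.2 in females, and the genotypes did not overlap under vehicle. Under fluoxetine Chd8 ranged from 2951 to 3285 in WT and from 2421 to 3072 in Het, and under lithium from 2989 to 3220 in WT and from 2520.42 to 2830.25 in Het.

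Levels of the members spanned a wide range in the 10 WT vehicle libraries. Per kilobase of the longest coding transcript, Dusp3 was highest at 1471 ± 91.8 normalized counts per kb (SD, n = 10), followed by Dusp14 at 1069 ± 88.3. Dusp8 (818 ± 29.3), Dusp6 (801 ± 93.5) and Dusp7 (701 ± 26.1) came next, and Dusp8 and Dusp6 differed by less than the SD of Dusp6. Dusp1, the inducible nuclear phosphatase, stood at 359 ± 46.5. The 4 lowest were Dusp5 (115 ± 20.1), Dusp4 (92.5 ± 18.8), Dusp16 (64.8 ± 6.64) and Dusp10 (52.5 ± 6.47), where Dusp5 and Dusp4 again overlapped within their SDs. All other values below are normalized counts per gene, which compare libraries but not genes.

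**Figure D1:**
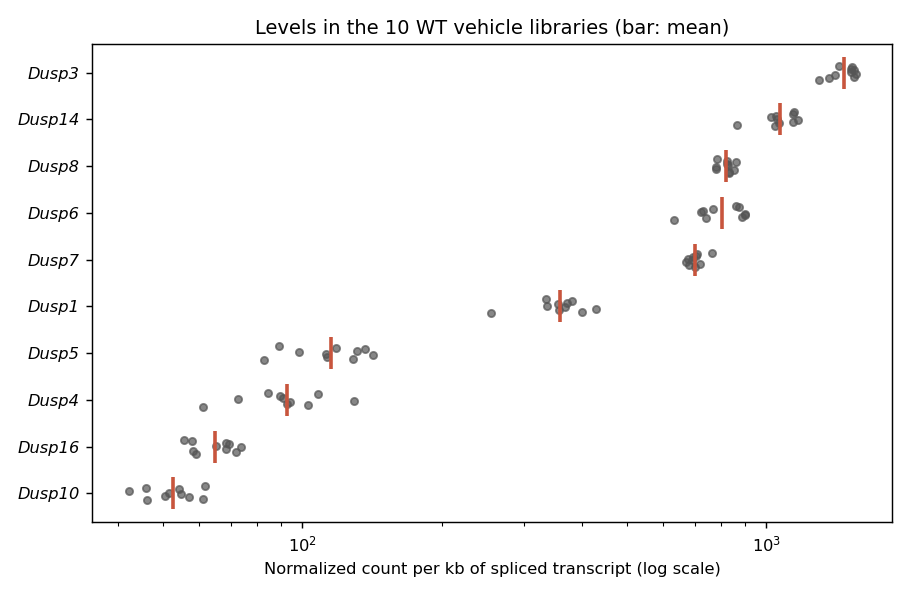
Normalized count per kb of the longest coding transcript (log scale) for the 10 genes in each of the 10 WT vehicle libraries, with a bar at the mean. Dusp3 and Dusp14 lie at the top and Dusp16 and Dusp10 at the bottom, at 64.8 and 52.5.

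The inducible nuclear phosphatase Dusp1, on chromosome 17 from 26505590 to 26562128 on the minus strand of GRCm38 (GENCODE M21 annotation), was lower under fluoxetine in both genotypes. WT vehicle libraries had a lowest, median and highest value of 508, 723 and 855, and WT fluoxetine libraries 374, 487 and 581. The groups overlapped, but all 10 fluoxetine libraries were below the vehicle mean. The log2 fold change was -0.56 ± 0.11 (SE; adjusted p = 0.00027 by limma with Benjamini-Hochberg adjustment over 17807 genes, as throughout). Het vehicle libraries had 596, 691 and 763 and Het fluoxetine libraries 324, 446 and 567, with no overlap between the groups. The log2 fold change was -0.63 ± 0.11 (adjusted p = 9.8e-06). Among all genes tested, 0.674% did not overlap and were lower in Het fluoxetine. Part of the annotated span of Dusp1 overlaps Ergic1 on the opposite strand, and whether counting used strand is not given in the sources used here.

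Dusp1 had lower mean values under fluoxetine in each sex as well. WT males had 671, 707, 742, 759 and 667 under vehicle and 385, 465, 489, 473 and 560.4 under fluoxetine, without overlap. Females of the same genotype had 508, 799, 713, 855 and 734 under vehicle and 374, 581, 559, 486 and 495 under fluoxetine, and there replicate 1 of the vehicle group lay inside the fluoxetine range. In Het males the values were 619, 596, 682, 711 and 699 under vehicle and 324, 406, 504, 554 and 440.1 under fluoxetine, and in Het females 763, 742, 639.7, 712 and 665 and 324, 567, 461, 441 and 450.2. Neither sex overlapped in Het. All 4 per-sex changes passed the test. The log2 fold change was -0.59 for WT males (adjusted p = 0.028) and -0.53 for WT females (0.043). Among Het mice it was -0.59 for males (0.0037) and -0.67 for females (0.0018). The WT calls were narrow: leaving out single libraries ended the call in 6 of 10 fits for WT males and 7 of 10 for WT females.

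Under lithium Dusp1 was higher in Het males. Het lithium males had 1132, 1055, 1178, 849 and 890.2, all above the Het vehicle males, a log2 fold change of 0.62 ± 0.15 (adjusted p = 0.020). That call was lost in 3 of 10 fits that left out a library, without the 16 libraries highest in olfactory bulb markers (0.51, adjusted p = 0.59) and with a glucocorticoid response score as a covariate (0.51, adjusted p = 0.15). Het lithium females had 1019, 604, 593, 676 and 890.5, of which 3 lay below the highest vehicle female, and their difference was 0.07 ± 0.15 (adjusted p = 0.87). Over both sexes the difference was 0.34 ± 0.11 (adjusted p = 0.031), which no longer passed in 7 of 20 fits that left out a library. It also no longer passed without those 16 libraries or with the glucocorticoid score as a covariate. In WT mice the lithium difference was 0.09 ± 0.11 (adjusted p = 0.72), and neither the genotype by lithium term (0.26 ± 0.15, adjusted p = 0.99) nor the sex by lithium term (-0.28 ± 0.15, adjusted p = 0.88) passed the test.

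Dusp5, an inducible nuclear phosphatase that acts on ERK (chromosome 19, 53529109 to 53542431, plus strand), had the largest fluoxetine difference of the members in WT mice. WT vehicle libraries had 204, 285 and 351 as lowest, median and highest, and WT fluoxetine libraries 116, 152 and 211, so that the groups touched only at their edges. The log2 fold change was -0.90 ± 0.15 (adjusted p = 3.0e-05). WT males had 243, 325, 337, 292 and 220.3 under vehicle and 116, 121, 146, 119 and 182 under fluoxetine, which did not overlap (log2 -1.05, adjusted p = 0.0026). WT females had 204, 318, 279, 351 and 278 and 119, 157, 170.5, 211 and 195, where the lowest vehicle value fell below the highest fluoxetine value (log2 -0.75, adjusted p = 0.040). The female call was lost in 8 of 10 fits that left out a library. An antisense gene, AC137853.2, overlaps Dusp5.

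Het mice showed a wider spread of Dusp5 under fluoxetine. Het vehicle libraries had 189, 276 and 392, and Het fluoxetine libraries 122, 212 and 470.5. Among the fluoxetine libraries, males had 122, 160.2, 273, 179.9 and 318 and females 230.4, 470.5, 293, 194 and 185, and female replicate 2 was above every vehicle library. The log2 difference of -0.33 ± 0.15 did not pass over both sexes (adjusted p = 0.078). Leaving out 1 library moved it between -0.25 (adjusted p = 0.19, without fluoxetine male replicate 1) and -0.44 (0.014, without that female). It also passed without fluoxetine male replicate 5 (-0.42, adjusted p = 0.024), fluoxetine male replicate 3 (-0.39, 0.045) or vehicle female replicate 3 (-0.40, 0.038). Het males alone had a difference of -0.59 (adjusted p = 0.038), lost in 7 of 10 fits that left out a library, and Het females -0.08 (adjusted p = 0.83).

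Dusp4 (chromosome 8, 34807297 to 34819894, plus strand), a nuclear phosphatase for ERK and JNK, was lower under fluoxetine in WT mice. WT vehicle libraries had 167, 252 and 354 and WT fluoxetine libraries 127, 186 and 235. The groups overlapped, and the log2 fold change was -0.48 ± 0.15 (adjusted p = 0.039), a call lost in 12 of 20 fits that left out a library. Het fluoxetine males had 90.4, 224, 216, 173 and 344 and Het fluoxetine females 270.3, 466, 278, 208 and 277, against 142, 255 and 359.5 as lowest, median and highest of the Het vehicle libraries. The Het difference was 0.03 ± 0.15 (adjusted p = 0.903), and its sign changed under other settings. Under lithium Dusp4 was higher in Het mice, with 266, 323 and 383 and all 10 libraries above the Het vehicle mean (log2 0.49 ± 0.15, adjusted p = 0.033). That call was lost in 5 of 20 fits that left out a library, and with the glucocorticoid score as a covariate (adjusted p = 0.10).

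**Figure D2:**
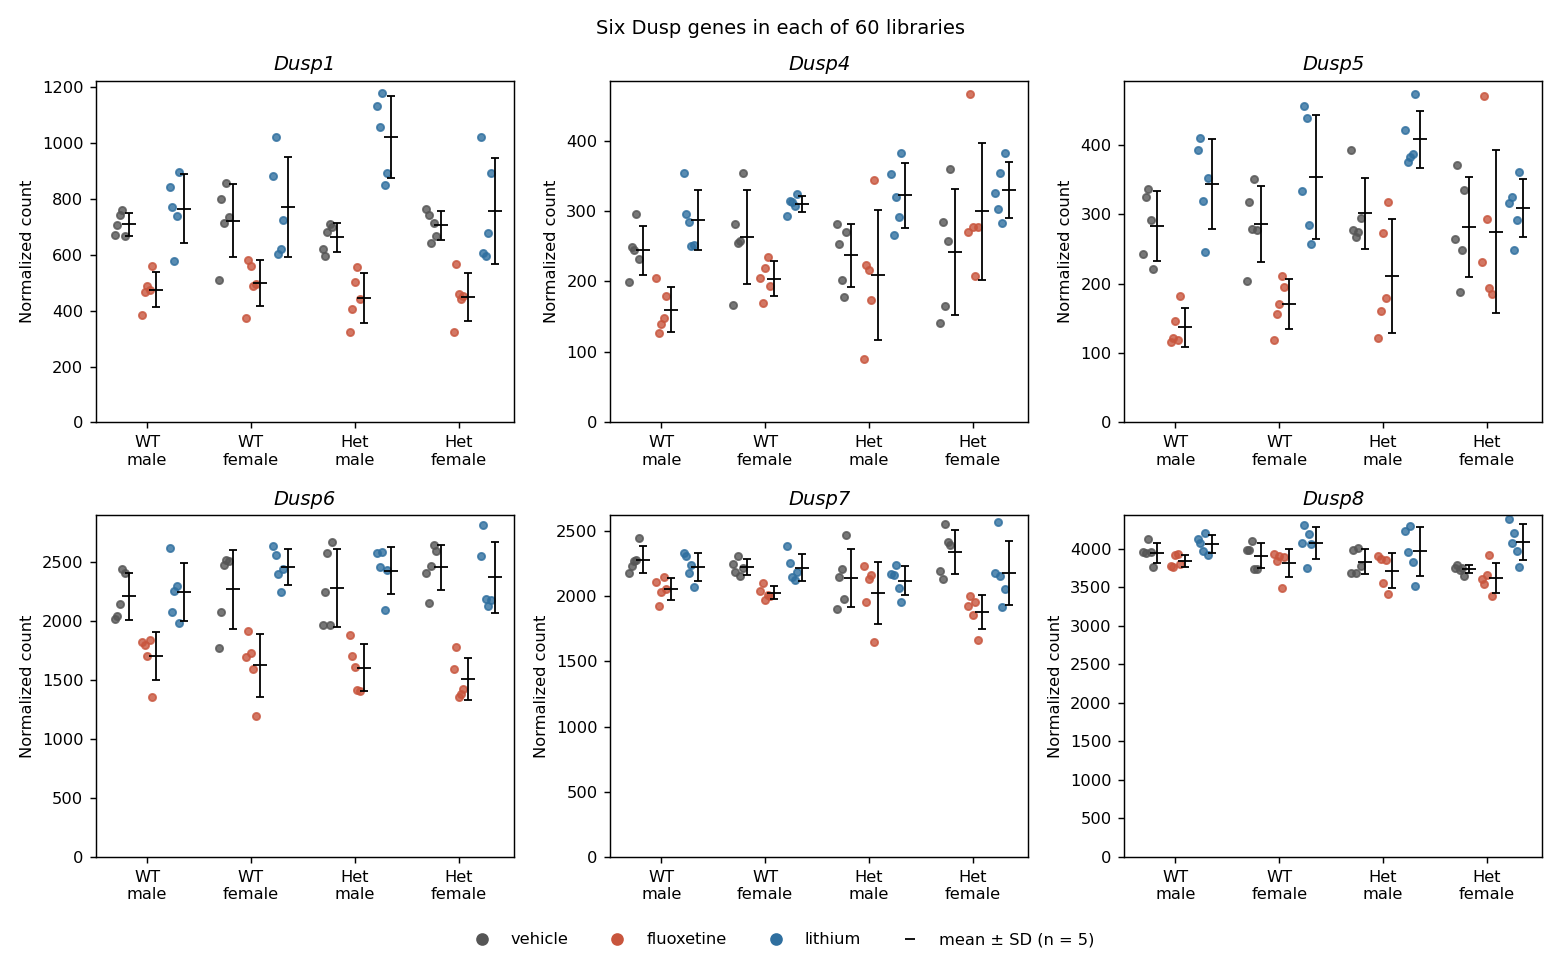
Normalized counts of Dusp1, Dusp4, Dusp5, Dusp6, Dusp7 and Dusp8 in every library, by genotype, sex and treatment, with the mean and SD (n = 5) beside each group. Dusp1 and Dusp6 under fluoxetine lie low in all 4 genotype and sex combinations, whereas Dusp4 and Dusp5 are scattered in Het fluoxetine mice, with Dusp5 from 122 to 470.46.

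Dusp6, the cytoplasmic ERK phosphatase (chromosome 10, 99263231 to 99267489, plus strand), was lower under fluoxetine in both genotypes. WT vehicle libraries had 1771, 2276 and 2519.8 as lowest, median and highest, and WT fluoxetine libraries 1194, 1715 and 1914. The log2 fold change was -0.43 ± 0.08 (adjusted p = 6.3e-05), and all 10 fluoxetine libraries were below the vehicle mean. Het vehicle libraries had 1963, 2439 and 2667 and Het fluoxetine libraries 1356, 1512 and 1878, with no overlap. Here the log2 fold change was -0.61 ± 0.08 (adjusted p = 3.5e-08). Per sex, the change passed in Het males (-0.51, adjusted p = 0.00066), Het females (-0.71, 1.6e-05) and WT females (-0.49, 0.0056). WT males had 2019.8, 2043, 2145, 2438 and 2407 under vehicle and 1819, 1797, 1701, 1842 and 1354 under fluoxetine, which did not overlap, but the difference of -0.38 missed the threshold (adjusted p = 0.053). For WT females, leaving out fluoxetine replicate 5 ended the call, at an adjusted p of 0.056. Under lithium Dusp6 was not called, with differences of log2 0.07 ± 0.08 in WT (adjusted p = 0.67) and 0.02 ± 0.08 in Het (0.896).

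Its cytoplasmic relative Dusp7 (chromosome 9, 106368632 to 106375724, plus strand) was lower by a smaller amount. WT vehicle libraries had 2155, 2239 and 2448 and WT fluoxetine libraries 1927, 2036 and 2149, so the lowest vehicle value was just above the highest fluoxetine value. The log2 fold change was -0.14 ± 0.05 (adjusted p = 0.037). Although the groups did not overlap, this call was lost in 9 of 20 fits that left out a library. In Het mice the vehicle libraries had 1904, 2203 and 2552 and the fluoxetine libraries 1646, 1956 and 2230.1 (log2 -0.20 ± 0.05, adjusted p = 0.00061). The Het difference was -0.31 in females (adjusted p = 0.00065, no overlap) and -0.08 in males (adjusted p = 0.37).

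Of Dusp8, Dusp10 and Dusp16, the members that act mainly on JNK and p38, none passed the test for either drug against vehicle. Dusp8 (chromosome 7, 142079490 to 142095843, minus strand) kept within 3382 to 4381 normalized counts in all 60 libraries, and its fluoxetine difference was -0.04 in each genotype. Dusp10 (chromosome 1, 184013302 to 184075636, plus strand) ranged from 101.19 to 188 and Dusp16 (chromosome 6, 134715468 to 134792625, minus strand) from 223 to 396. Their fluoxetine differences were 0.07 and -0.13 in WT and 0.11 and -0.08 in Het, with adjusted p-values of 0.27 or above. No atypical member passed either. Dusp3 (chromosome 11, 101971143 to 101987013, minus strand) differed by -0.08 in WT and -0.12 in Het (adjusted p = 0.402 and 0.084), and Dusp14 (chromosome 11, 84048041 to 84069261, minus strand) by 0.05 and -0.08 (0.68 and 0.37). Genes on the opposite strand overlap Dusp3, Dusp8, Dusp10 and Dusp16.

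**Figure D3:**
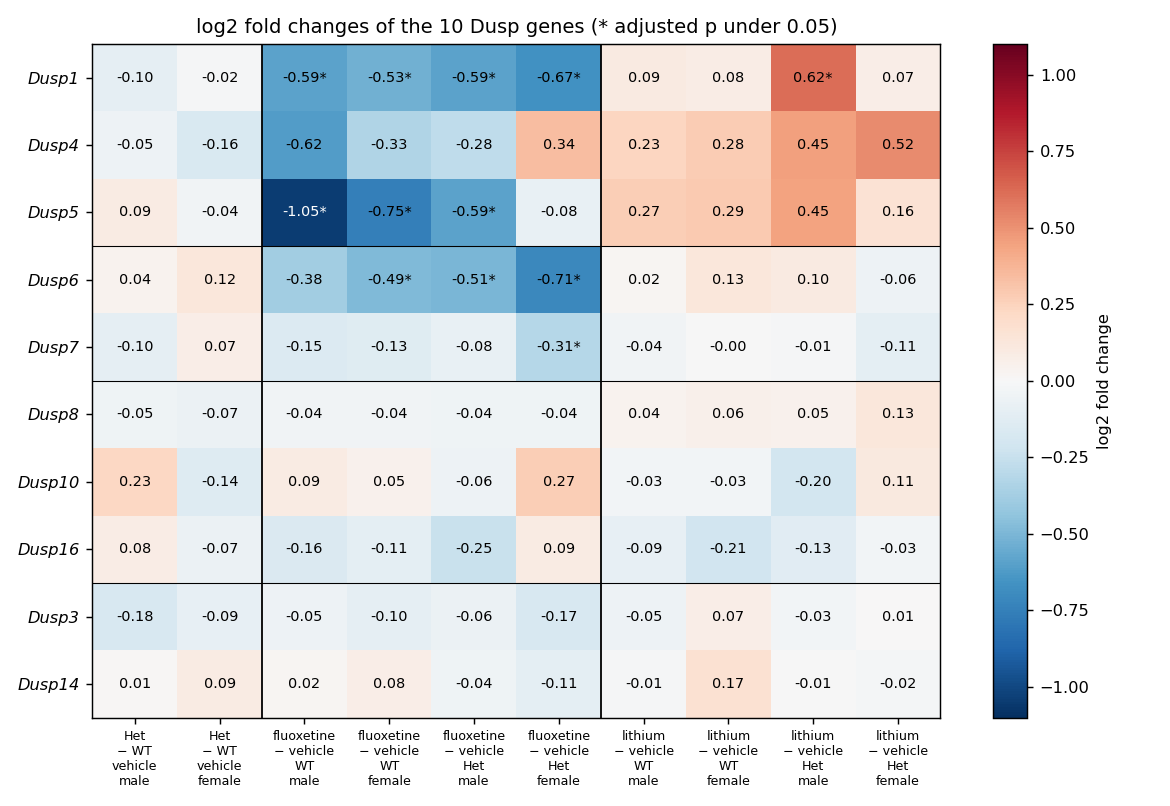
log2 fold changes of the 10 genes in the per-sex comparisons, with an asterisk where the adjusted p was under 0.05. Reds are higher and blues lower in the first-named group. Dusp1 is marked in all 4 fluoxetine columns, and the only marked lithium cell is Dusp1 in Het males, at 0.62.

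Set against all genes tested, the member counts were as follows. Under fluoxetine 5 of 10 members were lower in WT mice (Dusp1, Dusp4, Dusp5, Dusp6 and Dusp7), where 8.20% of all genes were called in either direction and 5.06% lower. In Het mice 3 of 10 were lower (Dusp1, Dusp6 and Dusp7), where 32.9% of genes were called, 2850 of the 17807 lower. The members' median log2 fold change was -0.137 in WT and -0.098 in Het, against 0.005 over all genes in both. In WT mice 1 member, Dusp7, did not overlap, where 0.842% of all genes did not overlap and were lower. Under lithium 2 of 10 members were higher in Het mice (Dusp1 and Dusp4; 9.14% of genes called, 5.30% higher). In WT mice 0 of 10 were called by limma, edgeR or DESeq2 (2.97% of all genes by limma), and 1 member had an unadjusted p under 0.05. The 2 drugs were given in separate mice that share the vehicle group, so these comparisons are not independent.

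By sex, the WT males had 2 members called lower under fluoxetine (1.34% of all genes called, 1.09% lower) and 4 without overlap (3.02% lower). WT females had 3 called (2.50% and 1.90%) and 1 without overlap (3.08%). For Het males the numbers were 3 called (22.7% and 10.7%) and 2 without overlap (3.43%), and for Het females 3 called (15.1% and 8.04%) and 4 without overlap (4.02%). For lithium 1 member, Dusp1, was called in Het males (1.44% of all genes called higher), and it was also the only member without overlap there (2.45% higher). The call was made for 0 members in the males of the WT genotype (0.0786%), its females (0.118%) and the Het females (0.629%), where 0, 1 and 2 members had an unadjusted p under 0.05 and edgeR and DESeq2 also called 0.

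Between the genotypes under vehicle, 0 of 10 members were called over both sexes by limma (0.0562% of all genes were), and 1 member, Dusp3, had an unadjusted p under 0.05. Per sex the count was 0 in males (0.0168% of all genes called; 1 member with an unadjusted p under 0.05) and 0 in females (0.0225%; 0 members). Under lithium it was also 0 (0.0393%; 1 member). In these comparisons edgeR and DESeq2 also called 0 members. Under fluoxetine 2 members were called, where 7.33% of all genes were, 3.45% higher and 3.88% lower. Dusp5 was higher in Het, at a log2 difference of 0.59 ± 0.15 (adjusted p = 0.012), and Dusp3 was lower, at -0.17 ± 0.05 (adjusted p = 0.038). Dusp3 had 5194, 6169.8 and 7067 as lowest, median and highest in WT fluoxetine libraries and 4911, 5364 and 6988 in Het. Its call was lost in 9 of 20 fits that left out a library.

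The difference between the genotypes in their fluoxetine response was tested directly. By limma 0 members were called, as by edgeR and DESeq2, for the genotype by fluoxetine term, where 1.70% of all genes were, and 2 members, Dusp4 and Dusp5, had an unadjusted p under 0.05. Dusp5 had 0.56 ± 0.21 (adjusted p = 0.12) and Dusp4 0.50 ± 0.21 (adjusted p = 0.16). These values depended on Het fluoxetine male replicate 1, which had the lowest Dusp4 of all libraries (90.4). Without it both terms passed, at 0.65 (adjusted p = 0.040) for Dusp5 and 0.64 (0.033) for Dusp4. That library was also low in bulb markers (score -2.02) and myelin markers (score -1.41). Its score for the activity-induced genes described below was -0.66, the lowest of all 60 libraries. Het fluoxetine female replicate 2 lay at the other end, with the highest Dusp4 (466) and Dusp5 (470.46) of the Het fluoxetine libraries. As given above, leaving out that female made the Het fluoxetine difference of Dusp5 more negative, which makes its genotype by fluoxetine term smaller. Without the 16 libraries highest in bulb markers the terms were 0.37 for Dusp5 (adjusted p = 0.38) and 0.27 for Dusp4 (0.55), and with the myelin score as a covariate 0.47 (0.29) and 0.37 (0.42). The sex by fluoxetine and sex by lithium terms called 0 members and 0.00% of all genes, and the genotype by lithium term did the same, also by edgeR and DESeq2. At an unadjusted p under 0.05 there was 1 member for sex by fluoxetine and 0 for the other terms.

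Dusp4 and Dusp5 varied with the olfactory bulb markers. Within groups, deviations of log2 levels from the group means were correlated with the bulb score over 60 libraries that share dissection and depth. The r was 0.49 for Dusp4, 0.48 for Dusp5, 0.54 for Dusp16, -0.48 for Dusp7 and 0.01 for Dusp1. With an activity-induced score, computed likewise from the 43 activity-induced genes below, r was 0.58, 0.54, 0.33, 0.04 and 0.73 in the same order. Across the 16 libraries with the highest bulb score, Dusp4 ranged from 178 to 466 and Dusp5 from 160.16 to 470.46, and no WT fluoxetine library was among them. The median bulb score was -0.80 in WT fluoxetine males and -0.65 in WT fluoxetine females, but 1.07 in Het fluoxetine females and 1.41 in Het vehicle males. None of the 14 bulb markers was called for fluoxetine in WT (8.20% of all genes called) or Het (32.9%), with a median difference of -0.81 in WT and -0.14 in Het. In WT females the median score was 0.67 under vehicle and -0.65 under fluoxetine. With the score as a covariate, the WT fluoxetine difference of Dusp4 was -0.30 (adjusted p = 0.24) and that of Dusp5 was -0.74 (adjusted p = 0.00029). Leaving out those 16 libraries gave -0.39 (0.11) and -0.82 (0.00014). The myelin markers also varied, with a median difference of -0.426 in WT and 0.459 in Het, and with their score as a covariate the WT difference of Dusp4 was -0.41 (adjusted p = 0.095). The Het against WT difference of Dusp5 under fluoxetine was 0.30 without the 16 libraries (adjusted p = 0.26). The Dusp1 and Dusp6 differences over both sexes passed in both fits and in both genotypes.

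**Figure D4:**
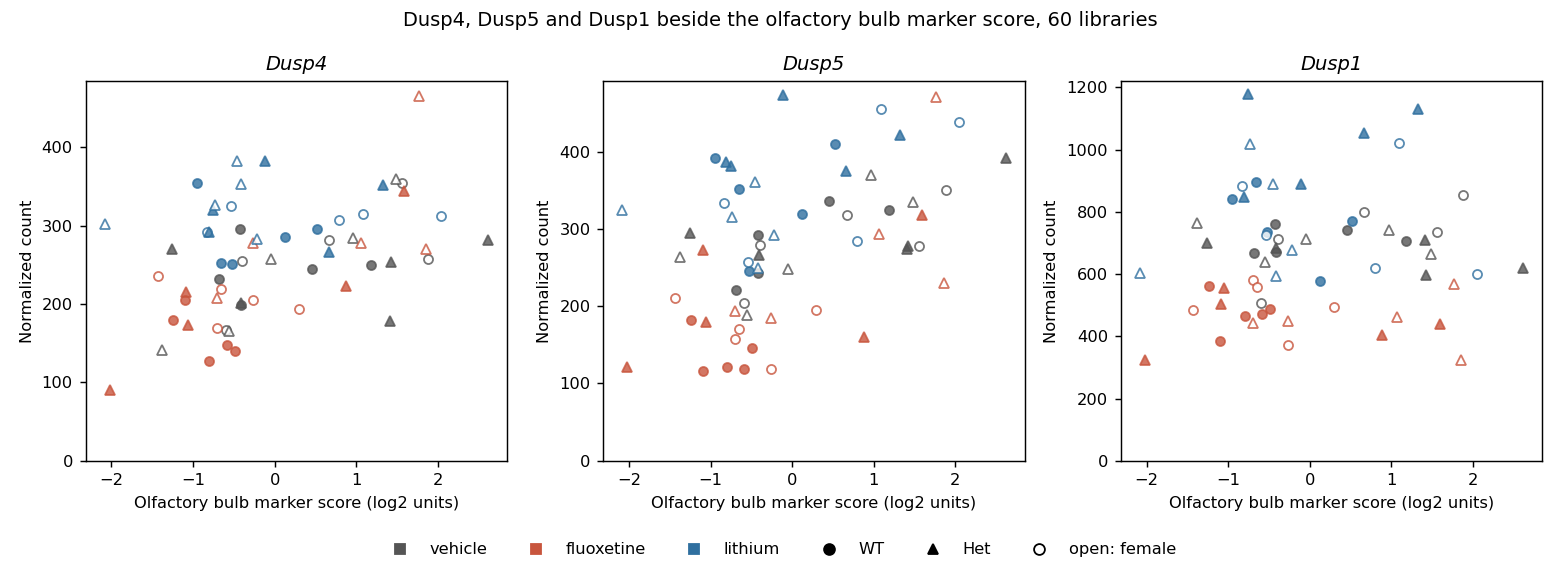
Normalized counts of Dusp4, Dusp5 and Dusp1 in the 60 libraries against the olfactory bulb marker score, coloured by treatment, with circles for WT, triangles for Het and open symbols for females. The Het fluoxetine female with the highest Dusp4 (466) and a Dusp5 of 470.46 has a score of 1.77, and the WT fluoxetine libraries lie at scores of 0.30 or below.

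Other marker lists moved with fluoxetine in Het mice. Of 17 glucocorticoid response genes, 11 were higher and 1 was lower in Het fluoxetine, and their summed level ranged from 15652 to 24105 in males and from 17630 to 22233 in females, against 14087 to 15989 and 15549 to 18924 under vehicle. None of these 17 was at 0 in any library, and Per1 is shared with the activity-induced list and Errfi1 with the ERK feedback list. With this score as a covariate (a fit chosen after seeing the data), Dusp7 was no longer called in WT (-0.12, adjusted p = 0.12) or Het (-0.13, adjusted p = 0.12). Dusp6 in Het moved from -0.61 to -0.38 (adjusted p = 0.0019) and was no longer called in Het males (-0.24, adjusted p = 0.19), and Dusp5 was called there at -0.70 (adjusted p = 0.0058). Among other cells, 5 of 7 microglial, 5 of 9 endothelial and mural, and 5 of 8 leptomeningeal markers were lower in Het fluoxetine, and in WT 0 of these were called. The summed leptomeningeal level ranged from 4931 to 9739 in Het fluoxetine males and from 4760 to 6221 in females, against 6431 to 7442 and 5058 to 9748 under vehicle. For microglia the ranges were 5138 to 11249 and 7028 to 8698 against 9196 to 10287 and 8178 to 11577. For endothelial and mural cells they were 9408 to 13205 and 8865 to 11346 against 12213 to 13943 and 10628 to 15413. Median scores of these lists were also below vehicle in Het lithium mice. For leptomeninges they were -0.206 in males and -0.088 in females, against 0.2 and 0.451 under vehicle. For microglia they were -0.059 and -0.093 against 0.123 and 0.024, and for endothelial and mural cells -0.131 and -0.02 against 0.068 and 0.112. Within groups, Dusp5 correlated with the microglial score at r = -0.59, with the endothelial and mural score at -0.49 and with the leptomeningeal score at -0.43, and Dusp4 at -0.43, -0.45 and -0.45, over 60 libraries. For Dusp1 the values were -0.34, -0.36 and -0.44, and Dusp6 correlated at -0.53 with the glucocorticoid score. The part of these 3 cell groups in the member results was not tested. Under lithium, 3 of 5 blood genes were higher in WT and 4 of 5 in Het (1.90% and 5.30% of all genes called higher). Their summed level in Het ranged from 3525 to 14391 in lithium males and from 6843 to 12390 in lithium females, against 3252 to 8797 and 4595 to 8365 under vehicle, and the part of blood in the Dusp1 and Dusp4 results was not tested. In bulk tissue, fewer cells of a type and less RNA per cell cannot be told apart.

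Genes of the same pathway were taken from lists by function. The activity-induced list held 43 genes, immediate early and later ones, that neurons switch on when they fire. Under fluoxetine 21 were lower and 1 higher in WT (8.20% of all genes called), and 21 lower and 2 higher in Het (32.9%). Their medians were -0.324 and -0.379 against 0.005 over all genes. Arc, a synaptic plasticity gene, averaged 5221 ± 1083 in WT vehicle and 1731 ± 705 in WT fluoxetine (SD, n = 10 each; log2 -1.66, adjusted p = 3.4e-10), and 5047 ± 745 and 1314 ± 462 in Het (-1.99, 3.7e-13). Egr2 (-1.69 in WT, -1.53 in Het) and Klf10 (-1.06 and -1.07), both transcription factor genes, fell in both genotypes. Fos (-1.32 in WT) and Nr4a1 (-0.85 in Het) were likewise called lower in each genotype. Vgf, which encodes a secreted neuropeptide precursor, was higher under lithium in WT (0.45, adjusted p = 0.0005) and Het (0.46, 5.1e-05). It was the 1 activity-induced gene called in WT, where 2.97% of all genes were called. Gadd45b, Plk2 and Csrnp1 were also higher in Het, where 4 of 43 were called, near the share of all genes called (9.14%).

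Of 17 genes that damp or report ERK signalling, 2 were lower and 1 higher under fluoxetine in WT, where 8.20% of all genes were called, and 4 lower and 1 higher in Het, where 32.9% were. Spry4, an inhibitor of receptor signalling to ERK, averaged 422 ± 58.1 in WT vehicle and 299.63 ± 62.0 in WT fluoxetine (log2 -0.51 ± 0.09, adjusted p = 5.2e-05), and fell by 0.68 on the log2 scale in Het (adjusted p = 6.2e-08). Phlda1, a feedback gene, was called lower in both genotypes (-0.13 in WT, adjusted p = 0.011), and Spred3 (-0.29) and Etv4 (-0.24) were lower in Het. Pebp1, an inhibitor of RAF, was higher in both genotypes (0.15 and 0.19). Under lithium 0 of 17 were called in WT, where 2.97% of all genes were. Etv1 alone was called, lower, in Het (-0.23, adjusted p = 0.027), where 9.14% of all genes were called.

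Of 40 ERK cascade genes, 3 were higher and 6 lower under fluoxetine in WT (8.20% of all genes called), and 12 higher and 7 lower in Het (32.9%). Ksr1, a scaffold of the cascade, rose in Het from 1319 ± 228 to 1855 ± 358 (log2 0.49, adjusted p = 0.00012). Under lithium 0 were called in WT (2.97% of all genes) and 1 in Het (9.14%), which was Ksr1 (0.42, adjusted p = 0.0045). Map2k1, which encodes MEK1, rose in Het from 6849 ± 385 to 8083 ± 468 (log2 0.24, adjusted p = 4.7e-06). Map2k1 was also called higher in WT. In WT, Sos1, an exchange factor for RAS, fell by 0.17 (adjusted p = 0.00072), and Elk1 rose by 0.14 (0.0036) and was called higher in Het as well. Of 31 genes for JNK, p38 and ERK5 signalling, 0 were higher and 6 lower under fluoxetine in WT (8.20% of all genes called). In Het 4 were higher and 9 lower (32.9% of all genes called). Map3k3 fell in both, by 0.23 (adjusted p = 0.00071) and 0.25 (5.5e-05), and Mapk7, which encodes ERK5, fell in Het by 0.30 (1.5e-05). Lithium called none of these 31 in WT (2.97% of all genes) and 5 higher in Het (9.14%), among them Map2k3 at 0.23 (adjusted p = 0.020).

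Of 25 other dual-specificity and MAP kinase phosphatases tested, 3 were higher and 1 lower under fluoxetine in WT, and 4 higher and 5 lower in Het, beside 8.20% and 32.9% of all genes called. Ssh1, a phosphatase for cofilin, was called lower in both genotypes, by 0.24 in WT (adjusted p = 0.00022), and its relative Ssh3 fell in Het by 0.39 (5.1e-07). Dusp12 also fell in Het, by 0.24 (adjusted p = 0.00039), whereas Ppp2cb, a catalytic subunit gene of protein phosphatase 2A, rose in WT by 0.10 (0.047) and in Het by 0.14 (0.00069). Lithium called 0 of the 25 in either genotype by limma, where 2.97% of all genes were called in WT and 9.14% in Het.

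A direct comparison of the drugs gave the largest difference of any member, that of Dusp5 in WT mice. Fluoxetine mice had lower values than lithium mice for 4 of 10 members in WT (7.74% of all genes called, 4.78% lower) and 6 of 10 in Het (25.0% called, 12.6% lower). Dusp5 differed by -1.18 ± 0.15 in WT (adjusted p = 9.9e-08), with WT lithium libraries at 245, 342 and 455 and no overlap. Dusp1 differed by -0.97 ± 0.11 in Het (adjusted p = 8.6e-10), with Het lithium libraries at 593, 890.3 and 1178, also without overlap. Dusp8 was called here alone, lower in Het fluoxetine than in Het lithium by -0.13 ± 0.03 (adjusted p = 0.0015), with 3382, 3633 and 3914 against 3511, 4025 and 4381. Without the 16 libraries highest in bulb markers its adjusted p was 0.062. Non-overlapping members were Dusp4, Dusp5 and Dusp6 in WT (0.691% of all genes lower) and Dusp1 and Dusp6 in Het (0.904% lower).

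The genes most like each member in pattern were taken as the 3 of 13688 named genes with a mean of at least 50 and the highest Pearson correlation of log2 levels over the 60 libraries, which share treatment groups, dissection and depth. Dusp1 ran most closely with Junb (r = 0.92), Ier5l (0.91) and Arc (0.90). Dusp4 ran with Dusp5 (0.78), Fosb (0.75) and Fosl2 (0.74), and Dusp5 with Sik1 (0.85), Irf2bpl (0.81) and Nab2 (0.81). Dusp6 ran with Dnajb5 (0.91), Gpr3 (0.90) and Tmem121b (0.90), and Dusp7 with Cckbr (0.84), Ephb3 (0.82) and Lingo1 (0.79). Dusp3 was most like Kcna6 (0.83), Mmp17 (0.81) and Sept6 (0.81), Dusp8 like Tmem151b (0.76), Kcnc4 (0.75) and Rasl10a (0.74), and Dusp14 like Cacng3 (0.74), Rgs4 (0.74) and Tspan5 (0.74). The likeness was lower for Dusp16, with Myt1 (0.67), and lowest for Dusp10, with Adi1 (0.53).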

How the data were processed

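The authors deposited 1 table of gene counts from RNA-seq of prefrontal cortex, divided by 1 size factor per library, which is a signal and not a count; 100.0% of the values came out as whole reads within 0.001 of a whole number. Per the submitters' processing notes, Salmon 0.11.2, R 3.6.0, DESeq2 1.19.11 and GRCm38 were used, with no roles given; the sources used here give neither the annotation nor whether counting used the strand. Recovered depth was 24052509 to 31647416 reads per library.

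From these values, log2(value + 1) was fitted with limma 3.58.1 (R 4.3.3) with 1 mean per group over 60 libraries. Genes reaching 10 in at least 5 libraries (17807) were tested, two-sided, with Benjamini-Hochberg adjustment within each comparison and calls at adjusted p under 0.05; fold changes on this scale understate changes of low genes. Because the values were normalized, limma was the main test, and edgeR 4.0.16 (quasi-likelihood) and DESeq2 1.42.0 were run on the recovered reads; edgeR called 545 genes higher and 939 lower for fluoxetine in WT and 2836 and 2909 in Het, where limma called 560 and 901, and 3003 and 2850.

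Alternatives were other normalizations, filters and pseudocounts, fewer groups, a replicate block, marker scores as covariates and leaving out libraries. The members and gene lists were chosen with earlier results of these data known. Named genes were all members, Chd8, up to 4 genes per pathway list and drug with the smallest p, and the 3 genes most like each member. Levels per kb used the longest coding transcript in GENCODE M21, and promoters came from RefSeq. A pathway gene that this rule names is not reported here.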

Additional observations from a re-analysis of the deposited data

Results flagged for a closer look

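In 8 of 120 sets of 5 libraries (10 members in 12 groups), 1 library lay far from the other 4 by Dixon's test (critical value 0.71), where chance gives about 1 in 20. Dusp3 was low in WT lithium male replicate 5, at 5584 normalized counts against 6575 to 6829 in the other libraries, and in WT vehicle male replicate 5, at 6362 against 6752 to 6872. Dusp4 was high in Het fluoxetine female replicate 2, at 466 against 208 to 278, the library that also had the highest Dusp5 of its group. Dusp5 was high in Het vehicle male replicate 1, at 392 against 267 to 294. Both of these libraries were among the 16 highest in olfactory bulb markers, with scores of 1.77 and 2.62. The Het fluoxetine female also had an activity-induced score of 0.152, where the highest in the other fluoxetine groups was -0.189. Het fluoxetine female replicate 1 had a bulb score of 1.86, with a Dusp4 of 270.3 and a Dusp5 of 230.4. The cause of these outlying values was not tested. Dusp6 was low in WT fluoxetine male replicate 5, at 1354 against 1701 to 1842, and Dusp8 in WT fluoxetine female replicate 4, at 3490.05 against 3836 to 3935. Dusp10 was high in WT fluoxetine female replicate 1, at 184 against 145 to 155, and Dusp14 was low in WT fluoxetine male replicate 3, at 1472 against 1741 to 1825.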

How the results depend on the processing

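None of the 34 called single-gene differences reversed direction under 15 other settings or when 1 library was left out. The Dusp4 difference for fluoxetine in Het, 0.03 and not called, did change sign: it was -0.12 without the 16 libraries highest in olfactory bulb markers, -0.04 with the myelin score, -0.03 with the glucocorticoid score, and -0.07 to 0.16 when 1 library was left out. Over both sexes, the fluoxetine differences of Dusp1 and Dusp6 in each genotype and of Dusp5 in WT passed under all of them. Of the 34, 13 were lost without the 16 libraries highest in olfactory bulb markers, 8 with the glucocorticoid score as a covariate (chosen after seeing the data, as was the striatal score, which lost 0), 7 with only the groups compared, 5 with the bulb score, 4 with quantile normalization, 3 with the myelin score, 1 each by edgeR and DESeq2, and 0 with TMM rescaling, either pseudocount, either filter or the replicate block. Leaving out libraries lost 79 of 560. The cause was not tested.

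Counts of members called changed as follows. Without the 16 libraries, which left 2 each in Het fluoxetine females and Het vehicle males and 3 to 5 in the other groups, the count was 0 for Het against WT under fluoxetine (2 in the main analysis), 1 for lithium in Het (2), 0 for fluoxetine in WT females (3), 1 in WT males (2) and 1 in Het males (3), and for lithium 0 in Het males (1) but 1 in their female counterparts (0). With the glucocorticoid score it was 1 for Het against WT under vehicle over both sexes and in males (0 each), and 1 under fluoxetine. For lithium in Het the count with that score was 1, a member other than Dusp1 and Dusp4, which both lost their calls. It was 0 for Het lithium males and 1 for Het lithium females. With only the groups compared the count was 0 for Het against WT under fluoxetine, 4 for fluoxetine in WT males and 1 in WT females. Quantile normalization, the bulb score and the myelin score each gave 1 in WT females, and the bulb score 1 for Het against WT under fluoxetine.

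Leaving out 1 library gave 3 to 5 members for fluoxetine in WT, 3 to 4 in Het, 2 to 3 for Het males, 0 to 3 for WT females and 1 to 2 for WT males. It gave 0 to 2 for lithium in Het, 0 to 1 in Het males, 1 to 3 for Het against WT under fluoxetine, 0 to 2 for genotype by fluoxetine, 4 to 5 for fluoxetine against lithium in WT and 5 to 7 in Het.

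The mean correlations showed no pairing of samples by replicate number: deviations correlated at 0.002 for the same number (-0.276 to 0.295) and -0.001 for different numbers. Of 60 libraries, 18 were most like their own number out of 5 numbers, and no chance level was computed for this count. With the replicate block, 5 members were called for fluoxetine in WT and 3 in Het, as without it, and 3 rather than 2 for lithium in Het. Precision differed between members and did not follow level alone. The SE of the fluoxetine difference in WT was 0.10 for Dusp10, the lowest member, 0.15 for Dusp4 and 0.03 for Dusp8.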
